A study of Mus musculus with 3 samples.

Results

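The peaks described here lie in the immunoglobulin and T-cell receptor loci of MEL cells, a mouse erythroleukemia line of the red cell lineage. They were called from DNase-seq, in which DNase I cuts DNA where chromatin is accessible and the cut ends are sequenced. A peak of the biological replicate 1 list was a member when its centre lay in, or within 20 kb of, an annotated immunoglobulin or T-cell receptor gene segment on chromosomes 6, 12, 13, 14 and 16 (GENCODE M21, build mm10). There were 1640 members among the 281600 peaks of that list, around 699 annotated segments. All samples were MEL cells, an immortalized line, and the labels name no treatment, time or other condition. Biological replicate 1 was 2 libraries of 1 biosample with a joint peak list, and biological replicate 2 was 1 library of another biosample with its own list of 89046 peaks.

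Each member is 150 bp wide and carries a score deposited by the authors, a whole number from 1 to 150. What the score counts is not given in the sources used here, and the read depth is unknown. Scores were read within a list only, since the replicate 1 list had a median of 73 and the replicate 2 list a median of 32. Each biological replicate has a single list, so samples could not be tested against each other. Intervals cover counting error over peaks only. Accessibility was measured in bulk, so the share of cells with an open site and the degree of opening per cell cannot be told apart.

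Antigen receptor genes are assembled in developing lymphocytes by V(D)J recombination. The RAG1 and RAG2 recombinase cuts at recombination signal sequences, a heptamer and a nonamer around a short spacer, which flank each variable (V), diversity (D) and joining (J) segment. The assembled exon is transcribed from a promoter in front of the V segment and spliced to a constant (C) segment. Igh, Igk and Igl encode the antibody heavy and light chains of B cells. Tra, Trb, Trg and Trd encode the T-cell receptor chains, and the Trd segments lie inside the Tra locus. Known enhancers lie between the J and C segments of Igh, Igk and Trd and downstream of the last C segment of several loci. In cells outside the lymphoid lineages these loci stay unrearranged.

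The label was checked with promoter peaks, meaning a peak centred within 1000 bp of a transcript start. Of 8 erythroid marker genes, 7 were so marked by replicate 1 and 6 by replicate 2. Among 8 B cell markers the counts were 5 and 3, and among 8 T cell markers 4 and 0. Over all 21938 protein-coding genes, 58.3% had a promoter peak in replicate 1 and 49.5% in replicate 2. Gata1, the erythroid master regulator, had scores of 141 and 71, and the globin gene Hbb-bt had scores of 128 and 40. The band 3 gene Slc4a1 and the B cell genes Cd79a, Pax5 and Ms4a1 had no promoter peak in either list, nor had the T cell genes Cd3e, Cd4, Cd8a and Zap70.

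The sequences below, from the GRCm38 reference, are those of the highest-scoring member of each locus that was overlapped by a replicate 2 peak. They are written 5′ to 3′ on the strand of the nearest segment. Capitals mark matches, on either strand, to the GATA motif AGATAA or TGATAA, the E-box CAGCTG or CAGGTG, RUNX (TGTGGTTA or TGTGGTTT) and PU.1 (GAGGAAGT). The Igh member lay at chr12:113487796-113487945 (minus strand), 5679 bp upstream of Ighd1-1, and held an E-box and a PU.1 match. The Igk member lay at chr6:70730936-70731085 (plus strand), 4045 bp past Igkc in an intron of Gm30211. The Igl member lay at chr16:19179836-19179985 (minus strand), 15088 bp past Iglc4, with a GATA and a RUNX match. The Tra/Trd member lay at chr14:54138436-54138585 (plus strand), between Trdj2 and Trdc, also with a GATA and a RUNX match. The Trb member lay at chr6:40891156-40891305 (plus strand), centred in an exon of Trbv1, with a PU.1 match. The Trg member lay at chr13:19365736-19365885 (plus strand), 13055 bp past Tcrg-C4 in an intron of Stard3nl.
Igh, upstream of Ighd1-1: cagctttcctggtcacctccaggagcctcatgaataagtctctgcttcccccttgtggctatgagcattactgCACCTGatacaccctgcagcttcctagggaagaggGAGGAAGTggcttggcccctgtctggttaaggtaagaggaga
Igk, past Igkc: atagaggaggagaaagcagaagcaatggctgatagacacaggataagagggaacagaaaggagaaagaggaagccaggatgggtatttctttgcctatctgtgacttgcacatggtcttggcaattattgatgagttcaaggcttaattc
Igl, past Iglc4: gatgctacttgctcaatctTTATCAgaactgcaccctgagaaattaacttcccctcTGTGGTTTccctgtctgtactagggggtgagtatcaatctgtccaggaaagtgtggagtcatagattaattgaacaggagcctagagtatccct
Tra/Trd, between Trdj2 and Trdc: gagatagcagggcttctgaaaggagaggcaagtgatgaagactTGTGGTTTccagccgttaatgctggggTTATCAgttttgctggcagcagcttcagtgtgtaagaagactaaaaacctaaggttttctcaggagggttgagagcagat
Trb, at Trbv1: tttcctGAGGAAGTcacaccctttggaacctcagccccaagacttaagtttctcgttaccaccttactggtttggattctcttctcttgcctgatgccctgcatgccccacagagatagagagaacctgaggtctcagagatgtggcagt
Trg, past Tcrg-C4: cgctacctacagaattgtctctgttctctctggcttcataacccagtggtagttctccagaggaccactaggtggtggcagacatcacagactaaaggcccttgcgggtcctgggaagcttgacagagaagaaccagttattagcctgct

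A pair of strong members outside the V segments is shown next, as examples from the Igk interval between V and J and from the sequence past Trac. The first, at chr6:70714336-70714485 (plus strand), lay 8151 bp upstream of Igkj1 in the interval between the V and J segments and held none of these matches. The other, at chr14:54227536-54227685 (plus strand), lay 3405 bp past Trac, the side on which the alpha chain enhancer is known to lie, and held a GATA and an E-box match.
Igk, upstream of Igkj1: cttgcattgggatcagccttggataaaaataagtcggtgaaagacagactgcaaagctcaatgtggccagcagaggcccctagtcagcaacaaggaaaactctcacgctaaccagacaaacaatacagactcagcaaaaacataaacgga
Tra, past Trac: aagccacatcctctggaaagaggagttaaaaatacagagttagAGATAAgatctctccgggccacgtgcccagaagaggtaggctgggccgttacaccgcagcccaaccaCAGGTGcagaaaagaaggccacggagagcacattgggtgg

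Of the 101 members overlapped by a replicate 2 peak, 8 held a CTCF consensus match and 4 a full recombination signal match. Examples at V segments follow, each overlapped and chosen because it held such a match, so they are not typical of overlapped members at V segments. Those at Trav12-1 (chr14:53538016-53538165) and Trav8n-2 (chr14:53345736-53345885) ended just before the V segment, on the plus strand, and held a CTCF consensus match. In the first, capitals also mark a GATA, an E-box, a RUNX and a recombination heptamer (CACAGTG) match, and in the other an E-box match.
Trav12-1: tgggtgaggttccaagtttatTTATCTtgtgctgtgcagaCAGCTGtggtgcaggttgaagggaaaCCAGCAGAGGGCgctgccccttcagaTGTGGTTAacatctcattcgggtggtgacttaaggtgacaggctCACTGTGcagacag
Trav8n-2: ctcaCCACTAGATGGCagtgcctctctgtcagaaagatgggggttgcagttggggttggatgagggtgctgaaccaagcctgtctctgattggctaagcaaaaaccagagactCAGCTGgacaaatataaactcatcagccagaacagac
Those at Igkv4-58 (chr6:69500136-69500285, minus strand) and Trav13d-4 (chr14:53073196-53073345, plus strand) covered the recombination signal at the far end of the V segment, its heptamer starting at the base after the annotated end. Capitals mark the heptamer, the spacer and a nonamer that matched ACAAAAACC at 7 or more of 9 bases. The spacer was 12 bp at Igkv4-58 and 23 bp at Trav13d-4. A GATA and a PU.1 match in the first and an E-box match in the other are in capitals too.
Igkv4-58: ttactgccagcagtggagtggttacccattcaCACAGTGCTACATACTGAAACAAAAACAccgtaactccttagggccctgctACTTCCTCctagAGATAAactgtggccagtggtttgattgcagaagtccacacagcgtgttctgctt
Trav13d-4: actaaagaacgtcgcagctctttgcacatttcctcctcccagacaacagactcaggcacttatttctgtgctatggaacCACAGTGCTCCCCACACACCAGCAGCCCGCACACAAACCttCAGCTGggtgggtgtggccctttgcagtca

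The loci differed in how many peaks they held and in how far the replicates shared them. Igh on chromosome 12 held 1235 members, 448 per Mb (95% interval 423 to 474). Tra/Trd on chromosome 14 held 285, 168 per Mb (149 to 188), and Trb on chromosome 6 held 42, 110 per Mb (79.5 to 149). Trg on chromosome 13 held 11, 51.5 per Mb (25.7 to 92.1). Igk on chromosome 6 held 62 members over 3.08 Mb, 20.1 per Mb (15.4 to 25.8), and Igl on chromosome 16 held 4, 23.7 per Mb (6.45 to 60.6). An isolated pair of V genes on chromosome 6, Gm17472 and Gm20730, had 1 member, with a score of 29 and no partner. The 5 chromosomes together carried 103 replicate 1 peaks per Mb. Igh thus stood above that value, Igk below it, and the intervals of Trb and the chromosome value overlapped.

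Replicate 2 gave another order. It had 3 peaks around the Igh segments, 1.09 per Mb (0.224 to 3.18), and 16 around those of Igk, 5.19 per Mb (2.97 to 8.43). Tra/Trd held 59, 34.7 per Mb (26.4 to 44.8), Trb held 11, 28.9 per Mb (14.4 to 51.7), Trg held 4 and Igl held 1. Over the 5 chromosomes replicate 2 had 30.9 peaks per Mb. The T-cell receptor loci together held 32.3 per Mb (25.3 to 40.5) and the immunoglobulin loci 3.33 per Mb (2.03 to 5.14).

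**Figure D1:**
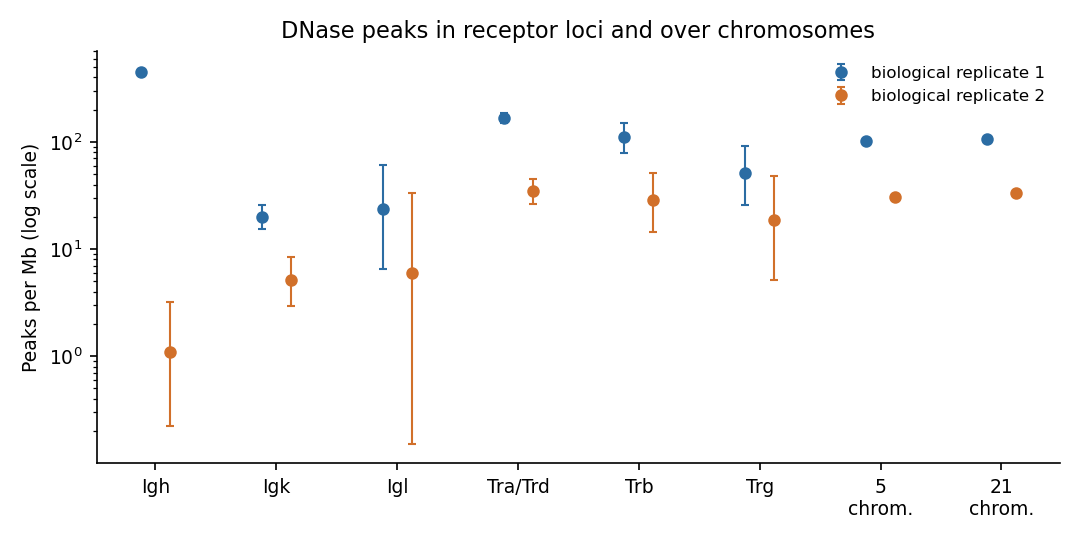
Peaks per Mb (log scale) within 20 kb of the segments of each receptor locus, and over the 5 and all 21 chromosomes, for biological replicate 1 (blue) and 2 (orange), with exact 95% Poisson intervals. Igh had the highest value of the loci in replicate 1 (448 per Mb) and, of the loci with a replicate 2 peak, the lowest in replicate 2 (1.09 per Mb).

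Of the 1640 members, 101 shared at least 1 bp with a peak of replicate 2 (6.16%, 95% interval 5.09 to 7.43%), against 30.2% of the whole list. The 101 formed 85 separate sites and met 85 replicate 2 peaks, since neighbouring members can overlap each other. Igh set the pooled share, with 3 of 1235 members overlapped (0.243%, 0.0826 to 0.712%). Outside Igh 98 of 405 members were overlapped (24.2%, 20.3 to 28.6%). By locus the shares were 18 of 62 in Igk (29.0%), 64 of 285 in Tra/Trd (22.5%), 11 of 42 in Trb (26.2%), 4 of 11 in Trg (36.4%) and 1 of 4 in Igl.

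Members had low scores. The median replicate 1 score was 25 in Igh and 47 outside it, against 73 over all chromosomes. Overlapped members outside Igh had a median of 98 in replicate 1 and 21 in replicate 2, and the members without a partner had a replicate 1 median of 39. Over the whole list the overlapped share was higher in higher score classes, so members were also set beside other peaks of the same score class. Outside Igh, 15 of 26 members with scores of 74 to 86 were overlapped (57.7%), against 19.7% of the other peaks of that class. Of those with scores of 87 to 100, 21 of 31 were overlapped (67.7%), against 34.6%. The gap was smaller in the other classes. With scores of 38 to 46, 1 of 56 was overlapped (1.79%), against 1.68%. With scores of 37 or less, 0 of 144 were, against 1.27%. Peaks that overlap each other were counted singly in both sets. Weighted to the scores of the members outside Igh, the rest of the list gave 14.3% overlapped, against the 24.2% seen in those members. The Igh members went the other way, with 0.243% overlapped against 2.68% at their own scores. Among the 903 Igh members with scores of 37 or less, none was overlapped, against 1.27% of other peaks in that class. These are differences between sets of peaks of the same pair of lists and were not tested.

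**Figure D2:**
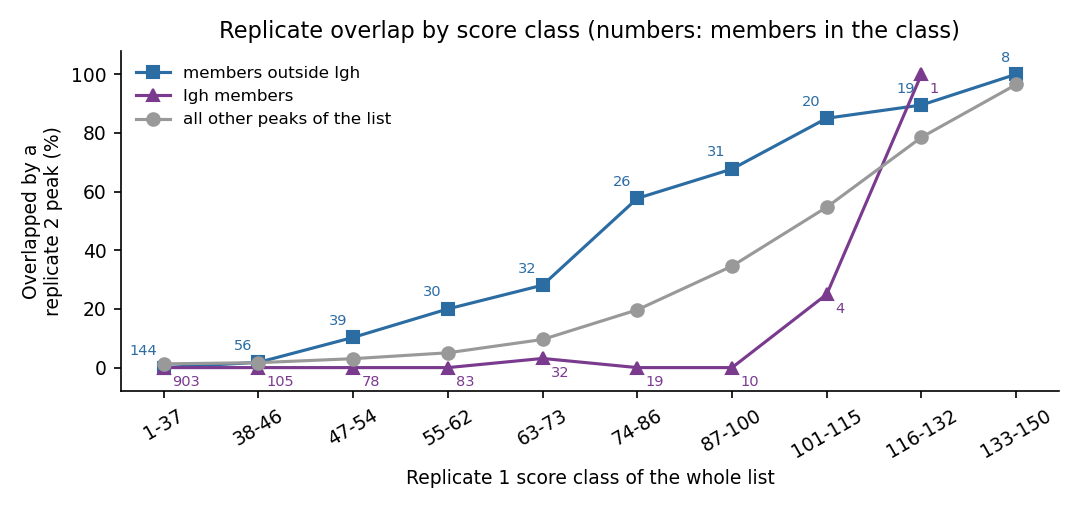
Share of replicate 1 peaks overlapped by a replicate 2 peak (vertical axis, %) in 10 score classes of the whole list, for members outside Igh (blue), Igh members (purple) and all other peaks (grey), with the number of members beside each point. Members outside Igh lay above the other peaks from the class 38 to 46 upward, and Igh members lay at 0% in 6 of the 9 classes that held any.

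The Igh members were a stretch of weak, closely spaced peaks over the V segments. Between the first and last V segment, 2437 kb at chr12:113572927-116010093, replicate 1 had 1193 peaks, 490 per Mb (462 to 518), with a median score of 25. Replicate 2 had no peak and no hotspot in that stretch, where replicate 1 had 876 hotspots. A hotspot is a broader enriched region from the same authors. Neighbouring Igh members were a median of 440 bp apart, against 1500 bp for all replicate 1 peaks. The stretch was not even: 26 bins of 100 kb that held V segments had between 0 and 160 peaks, with a median of 38.5.

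On both sides of Igh the lists shared many peaks. In the 500 kb before the Igha end replicate 1 had 267 peaks with a median score of 108, of which 96 were overlapped, and replicate 2 had 104. In the 500 kb beyond the last V segment replicate 1 had 97 peaks with a median of 97, of which 43 were overlapped, and replicate 2 had 44. Scores and replicate 2 peaks were thus lower over the V segments than in either flank. The share of repeated sequence differed too. Unique 32-bp words, those that occur once in the genome, made up 60.1% of the Igh V stretch, against 91.2% and 91.0% of the flanks. The Igk V stretch had a similar unique share, 57.5%, and 17.5 replicate 1 peaks per Mb (13.2 to 22.7). The median Igh member had unique words over 85.7% of its length. The part of repeated sequence in the Igh pattern was not tested.

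**Figure D3:**
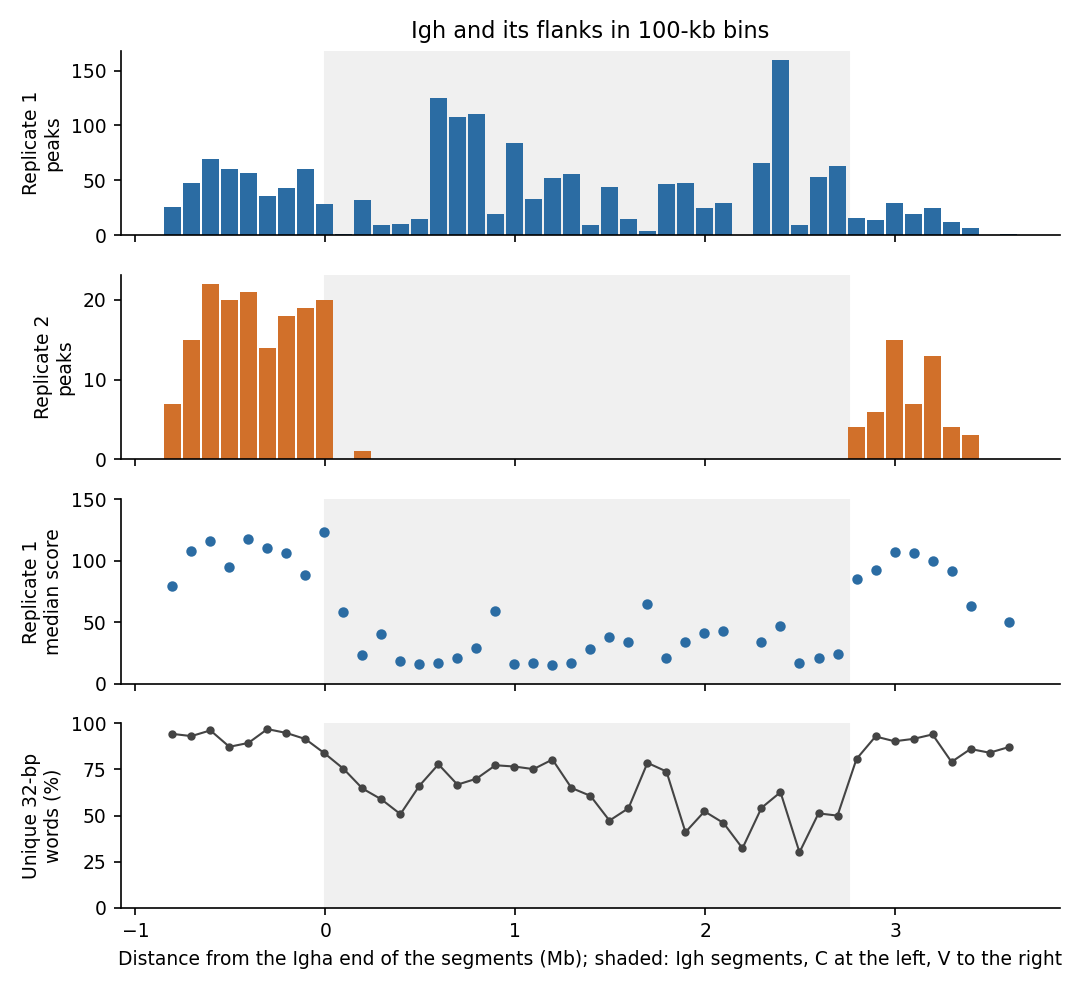
Igh and its flanks in 100-kb bins by distance from the Igha end of the segments (Mb): peaks of replicate 1, peaks of replicate 2, median replicate 1 score and share of unique 32-bp words, with the segments shaded. Inside the shading replicate 1 bins reached 160 peaks while replicate 2 had 1 peak, in the D segments. The replicate 2 peaks of the bins that straddle the edges of the shading, 4 of them at the V end, lay outside the segments.

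In the C and J parts of Igh there were few peaks or none. The C segments, 168 kb, had 4 replicate 1 peaks and none in replicate 2. The interval between Ighm and Ighj4, where the heavy chain intronic enhancer is known to lie, had no peak and no hotspot in either list. No Igh J segment had a peak within 1000 bp. The D segments, 97.5 kb, were not empty in replicate 1, with 31 peaks, 318 per Mb (216 to 451), and a median score of 23. One of them was overlapped, the peak shown above, which scored 116 in replicate 1 and 33 in replicate 2. It lay 1640 bp upstream of the start of Adam6b, a sperm surface protein gene within the locus. The overlapped peak lay between the annotated segments Ighd1-1 and Ighd3-1 and held no match to the CTCF consensus. An intergenic control region with CTCF sites is known to lie between the V and D segments. Whether the peak belongs to that region was not tested. The other overlapped Igh members were at the ends of the locus. One lay 6099 bp past Igha, the side of the known 3′ regulatory region, with scores of 70 and 17. The last lay 18198 bp from Ighv1-86, toward Zfp386, with scores of 113 and 36. The highest Igh member without a partner scored 109 and lay 2729 bp from Ighv8-5.

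In Igk most of the strong peaks lay at the J and C end. The interval between Igkv3-1 and Igkj1, 18.4 kb, held 7 replicate 1 peaks, of which 5 were overlapped. This interval is known to hold elements that control Igk rearrangement. Its highest peak scored 143 and 73 and lay 8151 bp upstream of Igkj1. A second site, 5334 bp past Igkv3-1, scored 137 and 56 and had a GATA match. The interval between Igkj5 and Igkc, where the kappa intronic enhancer is known to lie, had no peak in either list although all of its 32-bp words were unique. Past Igkc a peak at 345 bp scored 118 and 30, and the highest Igk member, at 4045 bp, scored 148 and 84. The kappa 3′ enhancers are known to lie downstream of Igkc.

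Across the 3149 kb of Igk V segments there were 55 replicate 1 peaks, 12 of them overlapped. The highest lay 6958 bp from Igkv14-111 and scored 127 and 64. Its own sequence was partly repeated, with unique words over 46.2% of its length. A peak 6418 bp from the same segment scored 99 and had no partner, as did one of 97 at 1407 bp from Igkv5-45. Of the Igk V segments themselves, 1 was covered by an overlapped member. This was Igkv4-58, where a peak just past the segment, shown above, scored 85 and 11 and a neighbour centred in its exon scored 38 and 11.

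In Tra/Trd many of the strong peaks lay around the delta D, J and C segments and past Trac. From the first D to the last C segment, 111 kb, there were 19 replicate 1 peaks with a median score of 99, of which 13 were overlapped. The 3 members between Trdj2 and Trdc, the interval of the known delta enhancer, were all overlapped. They scored 139 and 54, 118 and 26, and 99 and 20. A peak centred in an exon of Trdc scored 138 and 56. A pair of sites upstream of Traj61, on the side where the T early alpha promoter is known to lie, scored 121 and 34, and 102 and 24. Within the Traj cluster 3 of 7 peaks were overlapped, at Traj41 (131 and 42), Traj15 (115 and 31) and Traj33 (59 and 12). The interval from the last Traj segment to Trac had no peak in either list. Past Trac, the peak at 3405 bp scored 137 and 65, while a peak at 3765 bp scored 117 and one at 9225 bp scored 124, both without a partner.

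**Figure D4:**
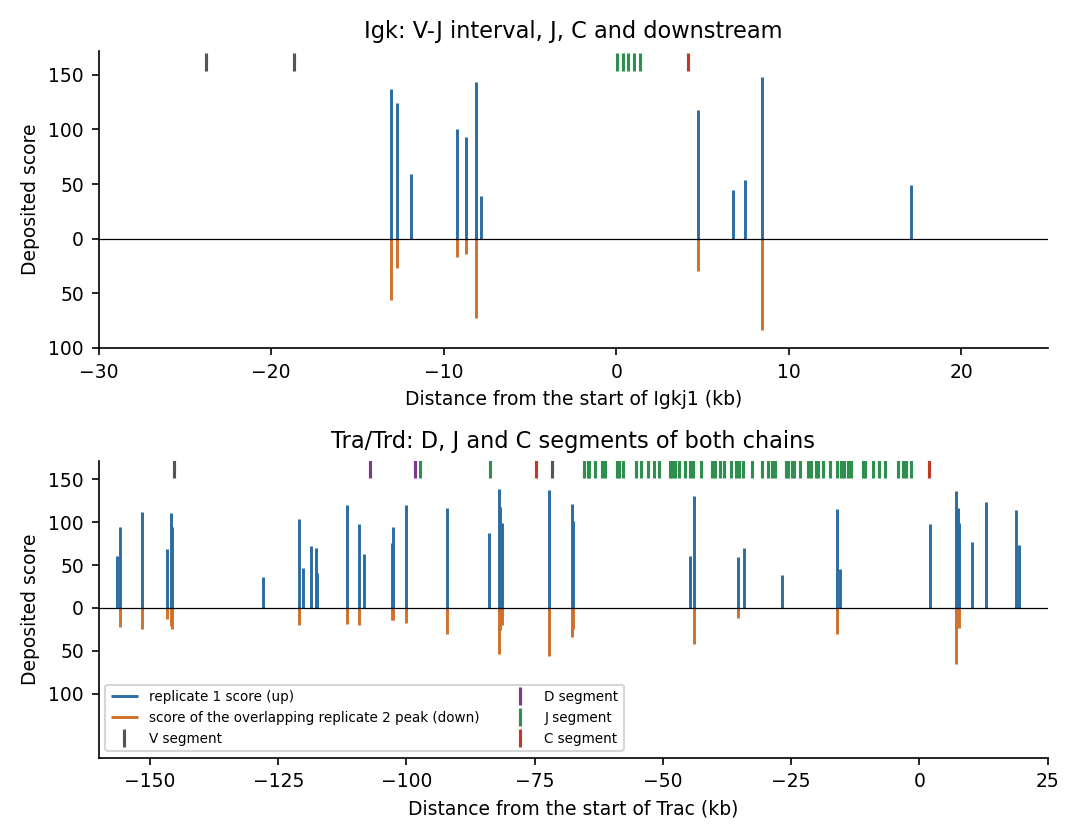
Deposited scores of members along the J and C ends of Igk and Tra/Trd by distance from Igkj1 or Trac (kb), with the replicate 1 score upward, the score of the overlapping replicate 2 peak downward, and segment midpoints marked at the top. The interval from Igkj1 to Igkc is empty, and the highest Igk bar past Igkc stands at 148 and 84.

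Of 136 Tra/Trd V segments, 39 had a replicate 1 peak centred within 1000 bp of their start and 15 a replicate 2 peak. The centres of 29 replicate 1 peaks lay in the 200 bp in front of a Tra/Trd V segment, 17 of them overlapped, and 14 replicate 2 peaks lay there. Within 400 bp of a V start there were 53.3 replicate 1 peaks per kb per 100 V segments, against 14.2 at 1000 to 3000 bp, a ratio of 3.77. For overlapped members the values were 20.2 and 1.84, a ratio of 11.0, and for replicate 2 peaks 15.6 and 2.02, a ratio of 7.73. A peak near several V starts was counted at each. Members that overlap each other were counted singly, even where they met the same replicate 2 peak. This was so at Trav8n-2, Trav12-1, Trav4-4-dv10, Trav16, Trav15-3 and B230359F08Rik, and at Trav4-3 in the farther window. The values thus count peaks and not separate sites or segments. In Igh the replicate 1 values were 62.5 and 48.0, a ratio of 1.30, and the replicate 2 list had no peak in these windows. In Igk only 1 replicate 1 peak lay within 400 bp of any of 176 V starts.

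**Figure D5:**
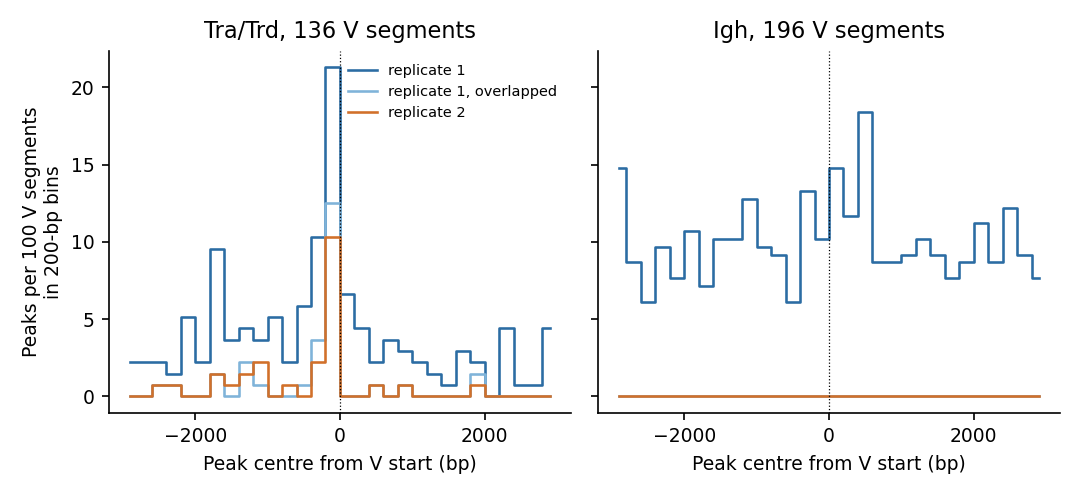
Peak centres by distance from V segment starts (bp, upstream to the left), in 200-bp bins per 100 V segments, for Tra/Trd and Igh: all replicate 1 peaks, those overlapped, and replicate 2 peaks. In Tra/Trd the bin in front of the start reached 21.3, 12.5 and 10.3 in these lists, and in Igh both the overlapped and the replicate 2 lines stayed at 0.

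Scores at these V segments ranged widely. At Trav4-4-dv10 the higher of a pair of overlapping members scored 131 and 49. At B230359F08Rik, annotated as a V segment, a site next to the start scored 125 and 32, a site 586 bp upstream scored 109 and 35, and another, 4728 bp past the segment, scored 137 and 50. Trav16 had 124 and 30, Trdv4 had 111 and 21 with a second site of 95 and 24, Trav8n-2 had 108 and 33, Trav4-3 had 106 and 24, and the pseudogene Trav15-3 had 98 and 19. Lower values were found at Trdv1 (72 and 9), the pseudogene Trdv3 (65 and 7), Trav12-1 (65 and 17), Trav6n-6 (65 and 10), Trav5-4 (57 and 12) and Trav3-1 (50 and 10). At Trav13d-4 (77 and 19) and Trav13n-4 (59 and 20) the peak centre lay inside the segment, over its recombination signal end. Over the 122 bases shared after alignment, the member printed for Trav13d-4 and the one at the same end of Trav13n-4 matched at 117, so the sequence of these copies is nearly repeated.

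Trb and Trg also had peaks at V starts, in smaller numbers. At Trbv1, the first V segment of Trb, a peak centred in an exon scored 144 and 63, and a peak 1846 bp away scored 105 without a partner. Trbv31, which lies past the C segments in the opposite direction, had 132 and 47 at its start and 93 and 16 just past its other end. The pseudogene Trbv10 had 109 and 22. Near Trbv12-1 a peak of 106 had no partner. A peak between the Trbj1 cluster and Trbc1 scored 91 and 18, whereas the interval between the Trbj2 cluster and Trbc2 was empty in both lists. The 9.34 kb between Trbc2 and Trbv31, where the beta enhancer is known to lie, held 3 replicate 1 peaks. The one overlapped there was that next to Trbv31. The member 9886 bp past Trbv1 (110 and 31) lay 1384 bp upstream of Prss58, a protease gene among the V segments. In Trg, Tcrg-V7 had a peak 173 bp upstream of its start with 95 and 28, and a pair past Tcrg-C4, in introns of Stard3nl, scored 110 and 32, and 103 and 32. The remaining overlapped Trg member, 19293 bp upstream of Tcrg-V7, scored 86 and 21. In Igl the overlapped member past Iglc4 scored 74 and 19. The highest others there scored 43, at 2651 bp upstream of Iglv1, and 33, at 2672 bp upstream of Iglv2, so no Igl peak lay at a segment.

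V segments were then compared with D, J and C segments, giving each base to its nearest segment. Outside Igh there were 67.6 members per Mb near V segments (60.7 to 75), 163 near D or J segments (112 to 229) and 91.3 near C segments (56.5 to 140). The shares overlapped were 20.5% near V (16.6 to 25%, 72 of 351), 54.5% near D or J (38.0 to 70.2%, 18 of 33) and 38.1% near C (20.8 to 59.1%, 8 of 21). Median replicate 1 scores were 43 near V, 88 near D or J and 98 near C. In replicate 2 there were 12.5 peaks per Mb near V, 84.1 near D or J and 39.1 near C. Unique words made up 54.8% of the sequence near V, 83.1% of that near D or J and 76.2% of that near C, and their part in the difference was not tested.

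The order varied by locus. Igk had 17.7 members per Mb near V (13.3 to 23.1), 254 near J (52.4 to 742) and 230 near Igkc (74.5 to 536). Tra/Trd had 162 near V (142 to 183), 221 near D or J (143 to 327) and 268 near C (123 to 509). In Trb the values were 109, 143 and 84.8, with 4 members near D or J and 1 near C, and in Trg they were 61.6, 27.7 and 51.9. In Igh V segments came first, with 489 near V (462 to 517), 269 near D or J (184 to 379) and 37.8 near C (15.2 to 77.8). Counting instead only members within 1 kb of a segment gave V segments the highest value outside Igh as well, with overlapping intervals. The values were 137 per Mb near V (114 to 163), 104 near D or J (49.9 to 191) and 53.0 near C (10.9 to 155). The median distance from a member to its segment outside Igh was 2036 bp near V, 2197 bp near D or J and 6625 bp near C.

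Seen from the segments, 60 of 359 V segments outside Igh had a replicate 1 peak centred within 1000 bp of their start (16.7%, 13.2 to 20.9%), against 19 of 90 J segments (21.1%, 14.0 to 30.6%) and 1 of 13 C segments, which was Igkc. In replicate 2 the counts were 22 V segments (6.13%), 8 J segments (8.89%) and again Igkc. J segments lie close together, so 1 peak can count for several: 8 of the 14 Trbj segments were within reach of a peak. By locus, the V share in replicate 1 was 37.8% in Igh (74 of 196), 28.7% in Tra/Trd (39 of 136), 31.4% in Trb (11 of 35), 42.9% in Trg (3 of 7), 3.98% in Igk (7 of 176) and 0 of 3 in Igl. In replicate 2 it was 0 of 196 in Igh, 15 in Tra/Trd (11.0%), 5 in Trb (14.3%), 1 in Trg and 1 in Igk. Tra/Trd V segments with a replicate 1 peak had a median unique share of 61.3% in that window and those without 3.70%, so a lack of peaks there cannot be told apart from reads that could not be placed. In Igk the corresponding medians were 61.6% and 66.2%.

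The share with a peak was higher for functional V segments than for V pseudogenes in Igh, Igk, Tra/Trd and Trb. In Igh 56 of 115 functional V segments had one in replicate 1 (48.7%, 39.8 to 57.7%), against 18 of 81 pseudogenes (22.2%, 14.5 to 32.4%), with unique shares of 67.8% and 79.7%. In Trb 10 of 22 functional V segments had one (45.5%, 26.9 to 65.3%), against 1 of 13 pseudogenes (7.69%, 1.37 to 33.3%). The values were 34 of 115 against 5 of 21 in Tra/Trd and 6 of 102 against 1 of 74 in Igk. The intervals overlapped in Trb, Tra/Trd and Igk and did not in Igh. These differences were not tested. In replicate 2 no Igh V segment of either kind had a peak.

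Most members lay between genes. Centres were intergenic for 1497 of 1640 members (91.3%), inside a gene but outside its exons for 69, and exonic for 74, and 82 lay inside a receptor segment. Among the 101 overlapped members 5 lay inside a segment and 29 within 400 bp of a segment start. Other genes in the loci added little: 3 members lay within 1000 bp of the start of another protein-coding gene, all at the olfactory receptor gene Olfr1510 beyond Trav1. At the border of the rule, 28 members lay 15030 to 19938 bp from a segment, 7 of them overlapped, and 14 peaks lay just outside at 20038 to 24655 bp, 4 of them overlapped.

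Consensus matches were counted on both strands of the 150 bp of each peak and set beside all peaks on the 21 chromosomes. An E-box can lie inside a CTCF match. GATA matches were found in 27.2% of members outside Igh (23.1 to 31.7%), in 31.7% of overlapped members (23.4 to 41.3%), in 20.6% of all peaks and in 23.9% of all overlapped peaks. The last value lies inside the interval of the overlapped members. In Igk the GATA share was 33.9% (23.3 to 46.3%), and in Igh 21.9% (19.7 to 24.3%). The CTCF consensus was matched in 3.46% of members outside Igh (2.07 to 5.72%), in 7.92% of overlapped members (4.07 to 14.9%), in 2.40% of all peaks and in 4.68% of all overlapped peaks, again inside the interval. RUNX matches were in 4.44% of members outside Igh and 3.36% of all peaks, and PU.1 matches in 5.68% and 7.97%. In Igh, 1.05% of members had a PU.1 match. The octamer (ATGCAAAT), a known element of immunoglobulin V promoters, was in 2.35% of Igh members, 0.988% of those outside Igh and 0.798% of all peaks. Base composition differed between these sets. The median share of G and C bases was 39.3% in Igh members, 44.7% in members outside Igh and 48.0% in all peaks. Its part in the motif shares was not tested.

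Members within 400 bp of a V start outside Igh, 67 in all, were also counted apart. CTCF matches were in 11.9% of them, E-boxes in 32.8% and GATA in 10.4%, against 2.40%, 16.6% and 20.6% of all peaks. The 8 members with a CTCF match belonged to 5 Trav segments of 3 families, Trav6, Trav8 and Trav12, and several of these segments are copies of each other. The match lay 83 to 216 bp upstream of the V start. No member held the cyclic AMP response element (TGACGTCA), chosen after the peaks at V segments were seen, against 0.279% of all peaks. A full recombination signal was matched in 1.16% of all members, 3.96% of overlapped members, 0.0213% of all peaks and 0.0177% of all overlapped peaks. Such signals flank the segments by nature, so members near segments had more chance to cover one.

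The proteins that open, cut and rejoin these loci were read at their promoters. Of 16 recombinase and end joining genes, 14 had a promoter peak in replicate 1 and 12 in replicate 2, against the 58.3% and 49.5% of all protein-coding genes. Those with the highest replicate 2 scores were Hmgb1 (145 and 106) and Hmgb2 (150 and 104), which bend DNA for the recombinase, and Dclre1c (150 and 101), the Artemis nuclease. Dntt, which adds bases at the joints, and the end joining factor Nhej1 had none in either list. Rag1 had 46 and Rag2 had 70 in replicate 1 and neither had one in replicate 2. Both were chosen after their values were seen.

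Replicate 1 marked the promoters of 5 of 11 partner chains of the receptors, against 58.3% of all protein-coding genes. Replicate 2 marked 1, against 49.5%, the surrogate light chain gene Igll1 (94 and 24). Cd79a, Vpreb1, Vpreb2, Cd3e, Cd247 and Ptcra had none in either list. Of 23 factors known to act at receptor loci, 18 had a promoter peak in replicate 1 and 15 in replicate 2, against the same 58.3% and 49.5% of all protein-coding genes. The highest in replicate 2 were Spi1, which encodes PU.1 (148 and 123), Tcf3, an E-box factor (150 and 101), and the cohesin subunit Rad21 (142 and 93). Pax5, Irf8, Spib, Lef1 and Bcl11b, which act in B or T cells, had none in either list. Other factors of lymphoid cells had a promoter peak in both, among them Ebf1 (121 and 35), Irf4 (105 and 23), Ikzf1 (134 and 43), Runx3 (147 and 83), Pou2f2 (133 and 29) and Pou2af1 (82 and 17). Gata3 (111) and Tcf7 (74) had one in replicate 1 alone. These 8 were named after their values were seen.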

How the data were processed

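DNase-seq peaks and hotspots of MEL cells were used as deposited, 1 list of each per biological replicate. Per the deposited notes, the replicate 1 lists derive from a single alignment file that both of its libraries share, and the replicate 2 lists from that of its 1 library. The lists differ in length, and their scores are not compared. The peak score is the authors' deposited value with no stated unit. Hotspots carry a deposited −log10 q-value and served as positions. The aligner, the caller and the depth are not given in the sources used here. The build was mm10, per the labels.

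Exact repeats were dropped, 67 lines in replicate 1 and 7 in replicate 2. Peak centres were assigned to the nearest segment of the GENCODE M21 basic annotation. Sequence came from GRCm38 (RefSeq), the C57BL/6J reference, which is the same build. Segments less than 300000 bp apart formed a locus. Density is peaks per Mb of the segments widened by 20 kb. Shares have Wilson and densities exact Poisson 95% intervals. Score classes are 10 classes of the whole list. Values were computed in Python 3.11.15 with scipy 1.17.1, pandas 2.3.3 and numpy 2.4.6 and plotted with matplotlib 3.10.9. The code was tested on simulated data. The members, gene lists, motifs and alternatives were chosen with earlier results of these data known. Peaks were named by rule: in each locus the 5 highest overlapped members and the 2 highest others, overlapped members in or just upstream of a segment, members between J and C segments, and the highest member past the last C segment. The peaks at Traj61, Traj41 and Traj15, the one 345 bp past Igkc, the one just past Igkv4-58 and the marker genes Gata1 and Hbb-bt lie outside that rule and were named after their values were seen. Alternatives were other distances, functional segments only, other overlap rules, stronger peaks only, hotspots, unique length, other start windows, a narrower motif window and each value without Igh, the last added after the data were seen.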

Additional observations from a re-analysis of the deposited data

How the results depend on the processing

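The pooled values turn on Igh, so each is given with all loci and then outside Igh. No paired analysis was possible because the results come from no test. Of 118 alternative values 67 stayed within 1.5 times the count or inside the 95% interval of the value reported, and 51 moved. With segments not widened the member count fell to 82 and 27, the density rose to 231 and 119 per Mb, and the overlapped share outside Igh was 18.5%. Widening by 10 kb gave a density of 212 per Mb over all loci. Widening by 50 kb gave 186 per Mb and an overlapped share of 8.10%. In the higher-scoring 50% of the list there were 143 and 108 members, of which 55.9% and 72.2% were overlapped, against 55.9% of all peaks so selected. With the replicate 1 list limited to the length of the replicate 2 list the shares were 79.1% and 86.4%, against 74.2% of the limited list. Over unique words the densities were 335 and 127 per Mb. Without replicate 1, the replicate 2 list gave 94 and 91 peaks, V segments with a peak 3.96% and 6.13%, J segments 8.51% and 8.89%.

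For members within 1 kb of a segment, densities were 278 and 137 per Mb near V, 104 near D or J outside Igh, and 33.6 and 53.0 near C. Functional V segments had a peak in 29.8% and 21.1%. Within 300 bp of the start the V shares were 15.1% and 10.6%, the J shares 8.51% and 8.89% and the C shares 0 and 0. Within 500 bp they were 18.7% and 12.5%, 10.6% and 11.1%, and 0 and 0. Within 2500 bp the V shares were 32.1% and 23.4% and the J shares 40.4% and 42.2%. In 75 bp around the centre GATA shares were 11.2% and 15.1%, E-box shares 6.71% and 8.40% and heptamer shares 3.05% and 2.72%, as a shorter window holds fewer matches. The depth of neither list is known, so a site without a replicate 2 peak is one not called there.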

Other observations

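The Igh V stretch also stood apart from the rest of the genome in bins of 1 Mb. Of 1132 bins with 100 or more replicate 1 peaks, the median share overlapped by a replicate 2 peak was 31.1%. In 2 bins no peak was overlapped, chr12:114000001-115000000 with 426 peaks and a median score of 21 and chr12:115000001-116000000 with 500 peaks and a median score of 34.5. Both lie in the Igh V segments. The next lowest were chr13:66000001-67000000, with 7 of 162 peaks overlapped (4.32%), and chr4:143000001-144000000, with 10 of 153 (6.54%). The bin chr14:51000001-52000000, which ends before the Tra/Trd segments, had 388 peaks with a median score of 24, of which 34 were overlapped (8.76%). Its peaks had unique words over a median of 97.5% of their length, against 96.2% and 79.0% in the Igh bins. These bins were picked out after their values were seen.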
